A study of Rattus norvegicus with 21 samples.

Results

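The 40 genes described here encode heat shock proteins, the cytosolic and mitochondrial chaperones that work with them, and the heat shock factors. They were taken by gene symbol from a list that was chosen with earlier results of these data known. Of the 40, 37 had a mean of at least 10 normalized counts over the 9 mRNA libraries and were tested. The same filter kept 14410 of the 32750 genes in the table. The cells were INS-1 832/13, an insulin-secreting line of rat insulinoma cells. RNA from cells exposed to 1 µM inorganic arsenic (iAs) for 24 h was sequenced in 5 libraries, and RNA from cells of the same line left untreated over that time in 4. Polyadenylated RNA was used throughout. The labels do not state whether the libraries within a group are separate cultures, so the p-values reflect only library-to-library spread and this may be technical in origin. Small RNA libraries of the same study (12) hold no chaperone mRNA and were not used here.

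Chaperones bind unfolded stretches of other proteins and release them in cycles driven by ATP. HSP70 proteins take substrates from J-domain proteins and let go of them with the help of exchange factors, HSP90 matures kinases and steroid receptors together with cochaperones, and the ring-shaped TRiC complex folds actin and tubulin. When unfolded proteins build up, heat shock factor HSF1 forms trimers that bind heat shock elements, inverted repeats of the letters GAA, and raises transcription of inducible chaperone genes. Arsenite reacts with thiol groups of proteins and is a classic inducer of this response in cultured cells. Beta cells carry a heavy load of secreted protein, which the separate chaperones of the endoplasmic reticulum handle. Those are not among the genes here.

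Library totals lay between 51009800 and 55869159 normalized counts, and log2 values correlated at 0.979 to 0.986 between libraries labelled iAs, at 0.974 to 0.989 between untreated ones and at 0.966 to 0.978 between the groups. The labels give the tissue as liver. The hepatocyte genes Alb, Ttr and Cyp2e1 were at or near 0 in every library, and of the 8 hepatocyte markers the 4 tested did not pass the test (sums of 5442 to 6705 normalized counts in iAs libraries and 5377 to 6072 in untreated ones, nearly all from Hnf4a and Tf, which islet cells also express), while the summed level of 12 beta cell markers was 2.3e+06 to 2.81e+06 normalized counts in iAs libraries and 2.54e+06 to 2.95e+06 in untreated ones. Of these 12 markers, 2 were higher in iAs libraries (Slc2a2, log2 difference 0.53, adjusted p = 0.0112, and Chga, 0.36, adjusted p = 0.0169, by limma) and 1 was lower (Nkx6-1, -0.46, adjusted p = 0.00408). Hmox1, the heme oxygenase gene that arsenite classically induces, averaged 1739 ± 465 normalized counts in libraries labelled iAs and 14132 ± 1727 in those labelled untreated (SD, n = 5 and 4), and Mt1, which encodes a metallothionein, averaged 887 ± 249 and 3671 ± 1312. Every direction below rests on these labels. All iAs libraries carry the label of sequencing lane 4 and all untreated ones that of lane 3, so exposure and lane cannot be told apart. Markers of other cell types also moved. Of 6 fibroblast, endothelial and immune genes, 3 were tested and all 3 were lower in iAs libraries (Thy1, Cd74 and Col1a1), Ptprc was at 0 in all libraries, and the summed level was 5782 to 8501 in iAs libraries and 9263 to 12881 in untreated ones. Of 4 acinar and duct genes, only Sox9 was tested and it was higher, Cpa1 and Prss1 were at 0, and the sum was 353 to 527 in iAs libraries and 61.4 to 108 in untreated ones. Of 4 hormone genes of other islet cells, only Gcg was tested and it was lower, with sums of 52199 to 81071 in iAs libraries and 80243 to 133466 in untreated ones. The part of these shifts in the chaperone values was not tested, and in bulk RNA a change in the mix of cells and a change in RNA per cell cannot be told apart.

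Among the 37 tested chaperone genes, 9 were higher and 2 were lower in iAs libraries at an adjusted p under 0.05 (limma-trend on log2 of normalized counts plus 1, Benjamini-Hochberg over all 14410 genes). These 11 genes are 29.7% of the 37. An unadjusted p under 0.05 was found for 15 of the 37, and for 5868 of all 14410 genes. Across all genes tested 30.0% were called, 15.1% higher and 14.9% lower, so the share of chaperone genes called was close to the share over all genes. The differences were small. Among called genes they ran between a log2 difference of -0.30 for Stub1 and 0.50 for Fkbp4. The median over the 37 was 0.09, against 0.00 over all genes tested, with 26 differences above 0 and 11 below. This median depended on the scaling and on single libraries. It was 0.04 with quantile normalization, 0.05 without untreated 2 and 0.12 without untreated 4. Values of the groups did not overlap for 7 genes above and 2 below, against background shares of 13.0% and 12.9%. Of the 9 genes called higher, 5 encode TRiC subunits, and the others were Fkbp4, Hsp90ab1, Cdc37 and Bag3. No call was made among the heat shock factors (0 of 2 also at an unadjusted p under 0.05), the J-domain proteins (0 of 5, and 0 unadjusted) or the mitochondrial chaperones (0 of 4, and 1 unadjusted).

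**Figure D1:**
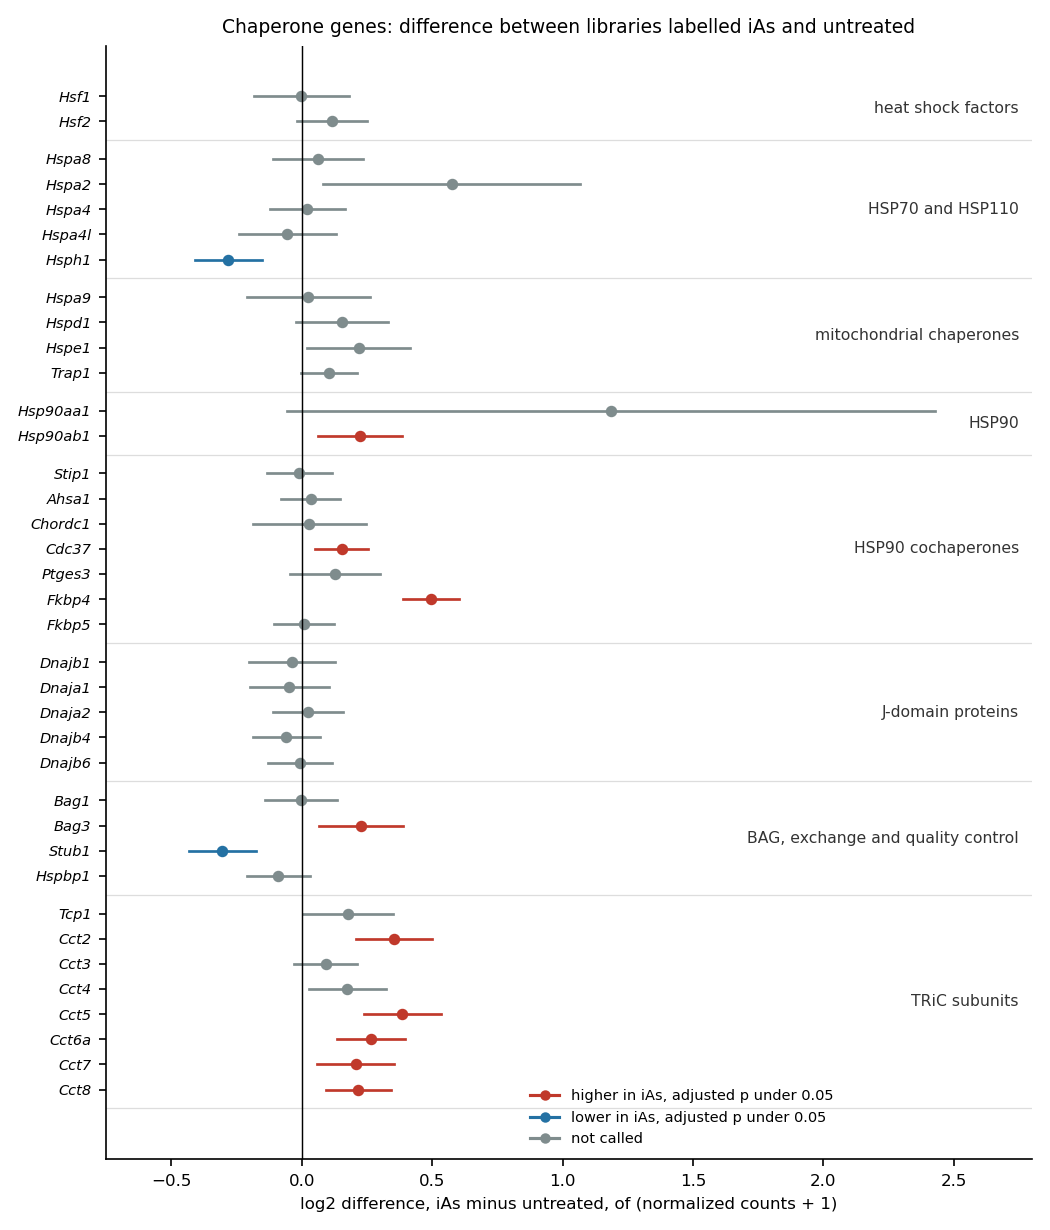
Log2 difference (iAs minus untreated, on normalized counts plus 1) of each of the 37 tested chaperone genes with its 95% confidence interval, grouped by role; 5 iAs and 4 untreated libraries. Most points lie near 0, all 8 TRiC subunits lie above it, and Hsp90aa1 has by far the widest interval.

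Heat shock element letters were searched in the 250 bases before the RefSeq start of each gene (build GRCr8). The motif of 2 units was GAANNTTC or TTCNNGAA, each its own reverse complement, and that of 3 units was GAANNTTCNNGAA or TTCNNGAANNTTC, which are the reverse complement of each other. A match of 3 units contains 2 overlapping matches of 2 units. A window was at hand for 33 of the 37 tested genes, and each gene was searched in 1 window. The 2-unit motif stood in 15 of the 33 (45.5%) and in 9.45% of the 9987 promoters of genes tested in the whole table. The 3-unit motif stood in 4 (12.1%) and in 0.401% of them. The 4 include Hspd1 and Hspe1, whose matches are the same bases, so 1 stretch is counted for 2 genes. Over all 27457 promoters of full length the shares were 13.2% and 0.597%. The motif stood in 5 of the 9 genes called higher, 1 of the 2 called lower and 9 of the 22 with a window that were not called. A match describes letters in a window and is not evidence of binding. The stretches below are from RefSeq, read 5′ to 3′ on the strand of the gene, with motif letters in capitals. Hsph1 (chr12:10427248-10427359, plus strand) and the run nearest to the start of Hspa8 (chr8:50080444-50080486, plus strand) are shown because both have 3-unit motifs and their ratio differed between the groups. Hspe1 (chr9:64084247-64084294, plus strand) is shown because it shares its motif with Hspd1, which starts in the other direction. Fkbp4 (chr4:163398033-163398070, minus strand), Cct5 (chr2:84313921-84313958, minus strand), Cct6a (chr12:32519090-32519127, minus strand), Cdc37 (chr8:27967044-27967081, minus strand) and Bag3 (chr1:192533313-192533350, plus strand) are the genes called higher that hold a 2-unit motif.
Hsph1: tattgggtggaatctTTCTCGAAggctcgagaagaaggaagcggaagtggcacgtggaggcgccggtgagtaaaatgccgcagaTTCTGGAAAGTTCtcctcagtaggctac
Hspa8: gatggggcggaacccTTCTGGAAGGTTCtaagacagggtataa
Hspe1: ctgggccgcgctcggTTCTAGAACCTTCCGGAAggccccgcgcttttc
Fkbp4: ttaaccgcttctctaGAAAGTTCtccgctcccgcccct
Cct5: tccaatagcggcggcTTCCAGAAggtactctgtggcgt
Cct6a: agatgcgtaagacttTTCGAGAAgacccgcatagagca
Cdc37: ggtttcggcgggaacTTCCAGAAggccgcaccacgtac
Bag3: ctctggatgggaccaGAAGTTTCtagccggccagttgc
The Hsph1 stretch ends close to the gene, with the last motif letter 24 bases before the start. In Hspe1 the 3 overlapping 2-unit motifs end 48 bases before the start, and the same bases lie 225 to 242 bases before the start of Hspd1 on the opposite strand. In Fkbp4, Cdc37 and Bag3 the single motif ended 130, 129 and 125 bases before the start, in Cct6a 33 and in Cct5 163. No window was used for Hsf1, Hsp90aa1, Dnaja2, Dnajb4 and Cryab.

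The genes of the heat shock factors did not pass the test. Hsf1, which encodes the main stress-activated factor, had 3182, 2887, 3251, 2601 and 2745 normalized counts in iAs libraries, against 2678, 3264, 2700 and 3106 in untreated ones. The 2 groups covered the same range, with a log2 difference of -0.00 (95% confidence interval -0.18 to 0.18, adjusted p = 0.99 by limma). Hsf2, which can pair with HSF1, averaged 1560 ± 43 normalized counts in iAs libraries and 1442 ± 101 in untreated ones (SD, n = 5 and 4), and its interval ran from -0.02 to 0.25. HSF1 is regulated mainly as a protein, and its mRNA does not report its activity. Of 4 tested regulators outside the 40 genes, Hikeshi, the carrier that brings HSP70 into the nucleus, was higher (log2 difference 0.31, adjusted p = 0.01 by limma) with each library left out in turn. Hsf4 was lower by 0.41 (log2 difference -0.41, adjusted p = 0.026). Its call was lost without iAs 5, untreated 2, untreated 3 or untreated 4. The calls for Hikeshi and Hsf4 are 50% of the 4 regulators tested, beside 30.0% of all genes.

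Among the 5 HSP70 and HSP110 genes the single call was a fall (20% called, beside 30.0% of all genes). Hsph1, which encodes the HSP110 protein that exchanges nucleotide for HSP70 and helps to dissolve aggregates, had 5312, 4711, 5390, 5180 and 5434 normalized counts in iAs libraries, against 6445, 6333, 6689 and 5832 in untreated ones. All iAs values lay below all untreated ones. The log2 difference was -0.28 (SE 0.06, adjusted p = 0.00363 by limma), and the call held with each library left out in turn. Hspa8, the constitutive HSP70 of the cytosol, had 43374, 39018, 46123, 49712 and 48256 normalized counts in iAs libraries, against 46475, 40866, 46246 and 39688 in untreated ones. The groups overlapped and the interval of the difference ran from -0.11 to 0.24. Hspa4 (log2 difference 0.02) and Hspa4l (-0.05), further HSP110-type genes, did not pass the test either. Hspa2, an HSP70 gene best known from the testis, had 214, 147, 201, 266 and 207 normalized counts in iAs libraries, against 181, 164, 135 and 85.7 in untreated ones. These ranges overlapped, and the log2 difference of 0.58 (SE 0.23, adjusted p = 0.0755 by limma) passed the test only without iAs 2 (0.69, adjusted p = 0.0373) or with the library code ending as a block.

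Outside the 40 genes, Hspa1a, the stress-inducible HSP70 whose level follows HSF1 activity in many cells, had 351, 344, 323, 353 and 428 normalized counts in iAs libraries, against 386, 463, 402 and 236 in untreated ones. The groups overlapped, with a log2 difference of -0.01 (adjusted p = 0.969 by limma). Its near-identical copy Hspa1b was not matched to a symbol, and reads that fit both copies could have been split. Hspa12a, a distant relative of HSP70, was the only call among the 5 tested genes of this list (20%, beside 30.0% of all genes). It had 1964, 2356, 2074, 1395 and 1363 normalized counts in iAs libraries, against 605, 715, 539 and 601 in untreated ones, which do not overlap. Its log2 difference was 1.55 (SE 0.16, adjusted p = 4.07e-05 by limma), a larger difference than that of any of the 37 tested genes, and it held with each library left out.

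The 4 mitochondrial chaperones had differences above 0 and none passed the test. That of Hspa9 lay below 0 with equal totals, with quantile normalization, without iAs 2 and without untreated 2 (lowest -0.05). Hspd1, the HSP60 of the mitochondrial matrix, had 23998, 27409, 25248, 27008 and 27264 normalized counts in iAs libraries, against 24632, 19469, 24320 and 26177 in untreated ones. Untreated 2 lay far below the other untreated libraries, and the rest overlapped (log2 difference 0.15, interval -0.02 to 0.33). Hspe1, the HSP10 lid of HSP60, averaged 3343 ± 260 normalized counts in iAs libraries and 2887 ± 401 in untreated ones (SD, n = 5 and 4). Its log2 difference was 0.22 (adjusted p = 0.0899 by limma), and it passed without untreated 4 (0.30, adjusted p = 0.014) and with the library code ending as a block (0.23, adjusted p = 0.0343). Trap1, the mitochondrial HSP90, differed by 0.11 and Hspa9, the mitochondrial HSP70 (mortalin), by 0.03. Among 11 tested genes of mitochondrial protein import and quality control, 2 were higher and 1 was lower (27.3% called, beside 30.0% of all genes). The protease gene Afg3l2 was lower by a log2 difference of -0.32 with each library left out in turn. The import receptor gene Tomm22 was higher by 0.22, a call lost without untreated 3. The protease gene Htra2 was higher by 0.15 and kept its call only without iAs 2 or without untreated 1.

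The 2 cytosolic HSP90 genes differed in how their libraries behaved. Hsp90ab1, the constitutive HSP90-beta, had 161299, 184192, 169467, 183977 and 189032 normalized counts in iAs libraries, against 157101, 138335, 154974 and 157560 in untreated ones. All iAs values lay above all untreated ones, with a log2 difference of 0.22 (SE 0.07, adjusted p = 0.0368 by limma). This call was lost in 7 of the 9 fits that leave out a library, namely without iAs 2, iAs 3, iAs 4, iAs 5, untreated 1, untreated 2 or untreated 3 (adjusted p 0.051 to 0.0846), and it was kept in 10 of all 21 alternatives. After quantile normalization the difference was 0.01 (adjusted p = 0.907 by limma). That scaling gives every library the same set of values, and the cause of this loss was not tested. Hsp90aa1, the stress-inducible HSP90-alpha, had 10000, 6698, 6641, 12942 and 14358 normalized counts in iAs libraries, against 6787, 5821, 9679 and 838 in untreated ones. Untreated 4 stood far below every other library, and the other 8 overlapped. The log2 difference of 1.19 (SE 0.57, adjusted p = 0.139 by limma) was 0.41 without untreated 4 (adjusted p = 0.272). The spread of Hsp90aa1 within groups (SD 1.11 on the log2 scale) was larger than that of 98.2% of genes tested, and the next largest among the chaperone genes was 0.39 for Hspa2. How reads shared with relatives and processed copies of Hsp90aa1, Hsp90ab1, Hspa8, Hspd1 and Hspe1 were assigned is not given in the sources used here.

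**Figure D2:**
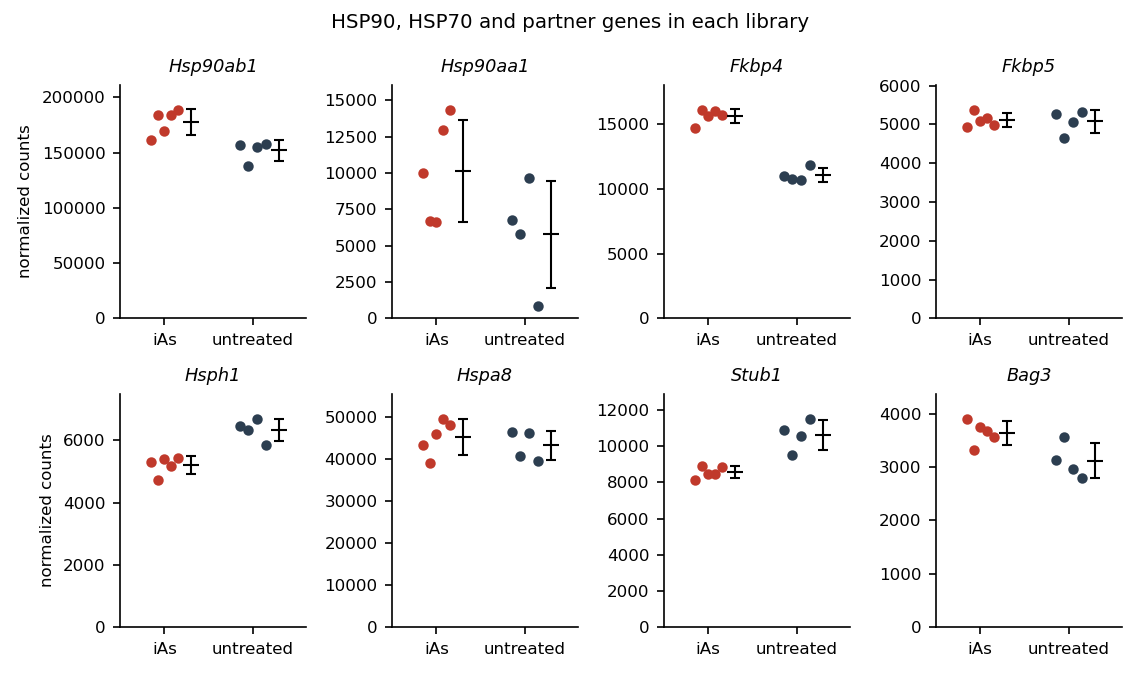
Normalized counts of 8 chaperone genes in each library, iAs on the left and untreated on the right of each panel; points are libraries, and the bar is the mean with its SD (n = 5 and 4). Fkbp4 and Hsp90ab1 lie higher in all iAs libraries and Hsph1 and Stub1 lower, while Fkbp5 and Hspa8 overlap and Hsp90aa1 has 1 untreated library near 838.

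Of 7 HSP90 cochaperone genes, 2 were higher (28.6% called, beside 30.0% of all genes). Fkbp4, which encodes the immunophilin FKBP52 that promotes steroid receptor transport, had 14644, 16098, 15626, 15975 and 15652 normalized counts in iAs libraries, against 10995, 10762, 10679 and 11815 in untreated ones. The groups were widely separated, and the iAs mean of 15599 ± 571 stood beside an untreated mean of 11063 ± 519 (SD, n = 5 and 4). The log2 difference of 0.50 (SE 0.05, adjusted p = 3.42e-05 by limma), 41.0% on the linear scale, had the smallest p among the chaperone genes and held in all 21 alternatives tried. Its counterpart Fkbp5 encodes FKBP51, which opposes FKBP52 at steroid receptors and is itself induced by glucocorticoids. It had 4924, 5381, 5078, 5162 and 4984 normalized counts in iAs libraries, against 5262, 4655, 5073 and 5320 in untreated ones. These values overlapped, with a log2 difference of 0.01 and an interval of -0.11 to 0.13. Cdc37, which hands kinases to HSP90, had 13353, 13957, 13646, 13989 and 14890 normalized counts in iAs libraries, against 12856, 12295, 12360 and 12707 in untreated ones. Its libraries did not overlap (log2 difference 0.15, adjusted p = 0.026 by limma), and the call was lost without iAs 5 (adjusted p = 0.0663), untreated 2 (0.052) or untreated 3 (0.0755). Stip1 (the HSP70 to HSP90 adaptor HOP, -0.01), Ahsa1 (an activator of the HSP90 ATPase, 0.03), Chordc1 (0.03) and Ptges3 (p23, which stabilises closed HSP90, 0.13) did not pass the test. Ptges3 passed without untreated 4 (0.21, adjusted p = 0.0335) and with the library code ending as a block (0.14, adjusted p = 0.0225).

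Among 21 tested HSP90 cochaperone genes outside the 40, 5 were higher and 4 were lower (42.9% called, beside 30.0% of all genes). Unc45a, a myosin chaperone that binds HSP90, averaged 5337 ± 248 normalized counts in iAs libraries and 6986 ± 207 in untreated ones (log2 difference -0.39, adjusted p = 0.000156 by limma). Ttc1, a small tetratricopeptide repeat protein, was lower to the same degree (-0.39). Ruvbl2, an ATPase of the R2TP complex, averaged 6487 ± 257 in iAs libraries and 5022 ± 317 in untreated ones (0.37), and Nudcd2 was also higher (0.37). The calls for these 4 genes held with each library left out in turn, and their group values did not overlap. Among 9 tested glucocorticoid-responsive genes, Sgk1 was lower with 518 ± 74 normalized counts in iAs libraries and 1191 ± 188 in untreated ones (log2 difference -1.20, adjusted p = 3.51e-05 by limma). Errfi1 was higher (0.35), and its call was kept only without iAs 3 or without untreated 4. The other 7 did not pass the test (22.2% of the 9 called, beside 30.0% of all genes), and the activity of the glucocorticoid receptor was not tested.

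None of the 5 J-domain genes passed the test, and their differences ran between -0.06 and 0.02. Dnajb1, the stress-inducible HSP40 of the cytosol, had 5066, 5016, 5390, 6181 and 5951 normalized counts in iAs libraries, against 6069, 5312, 5968 and 5272 in untreated ones. The groups covered nearly the same range (log2 difference -0.04, interval -0.20 to 0.13). Dnaja1 and Dnaja2, which feed substrates to HSP70, differed by -0.05 and 0.02, and Dnajb4 and Dnajb6, the second of which holds back aggregation, by -0.06 and -0.01. Of 34 tested J-domain genes outside the 40, 1 was higher and 5 were lower (17.6% called, beside 30.0% of all genes). Dnajc24, a protein of the diphthamide pathway, averaged 2645 ± 237 normalized counts in iAs libraries and 1716 ± 284 in untreated ones (log2 difference 0.63, adjusted p = 0.000835 by limma). Gak, which uncoats clathrin vesicles together with HSC70 (-0.21), was lower, as was Dnajc13 (-0.20), a protein of endosomes. The calls for Dnajc24 and Gak held with each library left out, while that of Dnajc13 was lost without iAs 4, iAs 5, untreated 1 or untreated 3. The number of lower J-domain genes outside the 40 was 2 without iAs 4, untreated 1 or untreated 3, was 3 without iAs 3, iAs 5 or untreated 2, and was 8 without untreated 4.

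The small heat shock protein genes among the 40 were almost silent. Hspb1, the HSP27 gene that many cells induce under stress, was listed at 0 in 8 libraries and at 1.63 normalized counts in untreated 3. Hspb8 was listed at 0 in all 9. Cryab, the alpha-B-crystallin gene, had 0, 0, 1.17, 0 and 5.01 normalized counts in iAs libraries, against 0, 4.19, 2.45 and 1.98 in untreated ones. Each of the 3 stayed under the filter, and no fold is given. The promoter windows of Hspb1 and Hspb8 hold 2 and 1 of the 2-unit motifs. Of 8 further small heat shock protein genes 2 were tested and both were called, beside 30.0% of all genes. Hspb11, also known as IFT25 of the ciliary transport machinery, was higher (log2 difference 0.41, adjusted p = 0.00532 by limma) and Hspb6 was lower (-0.30, adjusted p = 0.0132), each with every library left out in turn.

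Of the 4 genes of exchange and quality control, Bag3 was higher and Stub1 was lower (50% called, beside 30.0% of all genes). Stub1 encodes CHIP, the ubiquitin ligase that marks clients of HSP70 and HSP90 for destruction. It had 8143, 8921, 8477, 8477 and 8840 normalized counts in iAs libraries, against 10878, 9489, 10541 and 11518 in untreated ones. All iAs values lay below all untreated ones (log2 difference -0.30, SE 0.06, adjusted p = 0.00237 by limma), and the call held in all 21 alternatives. Bag3, an HSF1 target that steers HSP70 clients into autophagy, had 3906, 3316, 3751, 3668 and 3555 normalized counts in iAs libraries, against 3134, 3559, 2964 and 2800 in untreated ones. Untreated 2 lay inside the iAs range, and the other untreated libraries lay below it. The log2 difference was 0.23 (SE 0.07, adjusted p = 0.0348 by limma), and the call stood only with all libraries, without iAs 2 or without untreated 2 among the fits that leave out a library (adjusted p 0.0547 to 0.0979 without any other). Bag1, an exchange factor of HSP70, differed by -0.00 and Hspbp1, another exchange factor, by -0.09, and neither passed the test. Among 12 tested genes of the same kinds outside the 40, 2 were higher and 2 were lower (33.3% called, beside 30.0% of all genes). St13, the HSP70-interacting protein HIP that slows nucleotide exchange, averaged 9204 ± 624 normalized counts in iAs libraries and 11664 ± 579 in untreated ones (log2 difference -0.34, adjusted p = 0.00112 by limma), and Ubxn1 was lower too (-0.31). Bag2, which inhibits CHIP, was higher (0.44, adjusted p = 0.0066). These calls held with each library left out, and that of Ubqln2 (0.23) was kept only without iAs 4, iAs 5 or untreated 2.

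All 8 subunit genes of TRiC had differences above 0, and 5 of the 8 passed the test (62.5%, beside 15.1% of all genes called higher). The 8 differences stayed above 0 in all 21 alternatives tried, and their median was 0.21. Of the 8, 7 had an unadjusted p under 0.05, as had 5868 of all 14410 genes. Cct5 had 20981, 23858, 22438, 25321 and 24024 normalized counts in iAs libraries, against 18236, 15980, 18147 and 19039 in untreated ones. Its groups were clearly apart, and the log2 difference of 0.39 (SE 0.07, adjusted p = 0.00124 by limma) was the largest in the complex. Cct2 had 14355, 16853, 14950, 17392 and 15749 in iAs libraries, against 13036, 11375, 12234 and 12951 in untreated ones, again without overlap (0.35, adjusted p = 0.00202). Cct6a had 12823, 15161, 13103, 13274 and 13192 in iAs libraries, against 11065, 10762, 10956 and 12152 in untreated ones (0.27, adjusted p = 0.0059). In Cct6a 4 of the iAs libraries lay close together and iAs 2 lay above them, without overlap between groups.

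Cct8 had 14745, 16720, 15281, 15535 and 16278 normalized counts in iAs libraries, against 13850, 12297, 13724 and 14206 in untreated ones (log2 difference 0.22, adjusted p = 0.0131 by limma). These groups did not overlap. Cct7 had 20455, 24096, 23089, 23260 and 23093 in iAs libraries, against 20646, 17279, 20458 and 20767 in untreated ones (0.21, adjusted p = 0.038). Here iAs 1 fell within the untreated range, and the call was kept only without iAs 1 or without untreated 4 among the 9 fits that leave out a library (adjusted p 0.0513 to 0.0889 without any other). Tcp1 (0.18, adjusted p = 0.113), Cct4 (0.18, adjusted p = 0.0713) and Cct3 (0.09, adjusted p = 0.238) did not pass the test, and Cct4 passed without iAs 1 (0.22, adjusted p = 0.0291). The calls for Cct2, Cct5, Cct6a and Cct8 held with each library left out in turn.

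The TRiC genes moved together from library to library. Untreated 2 had the lowest value of all 9 libraries in 8 of 8 subunits, and untreated 4 the highest of the untreated ones in 7. Among iAs libraries, iAs 1 was lowest in 7 of 8, and the highest value of all 9 was in iAs 2 for 5 subunits and in iAs 4 for 3. The median deviation of the 8 genes from their group mean was -0.15 in untreated 2 and -0.12 in iAs 1 on the log2 scale. Over all 37 chaperone genes it was -0.10 and -0.09 in these libraries. Over all genes tested it stayed between -0.01 and 0.01 in every library. The DESeq2 normalization itself tends to bring this about, so it cannot show that the shift is particular to TRiC. The 8 subunits varied together between libraries and are therefore not 8 separate tests. The cause was not tested. The median of the 8 was 0.16 without untreated 2 and 0.24 without iAs 1. The same libraries recurred over all 37 genes, where iAs 1 was the lowest iAs library in 24 and untreated 2 the lowest untreated library in 23. TRiC is assisted by prefoldin, which delivers actin and tubulin chains. Of 13 tested prefoldin and TRiC assistant genes, 3 were higher (Pfdn4 0.33, Pfdn1 0.22 and Pdcl3 0.16 as log2 differences) and 1 was lower (Pdrg1, -0.38). These calls are 30.8% of the 13, beside 30.0% of all genes. The calls for Pfdn4 and Pdrg1 held with each library left out. That of Pfdn1 was lost without untreated 1, untreated 2 or untreated 3, and that of Pdcl3 was kept only without iAs 1 or untreated 4.

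**Figure D3:**
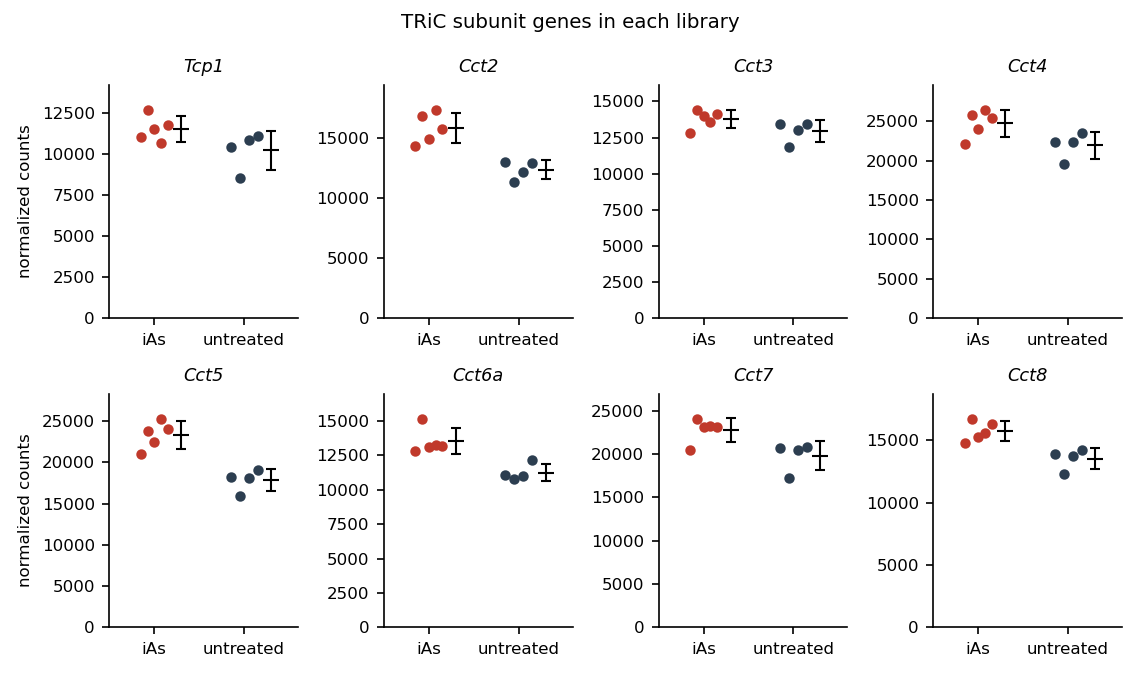
Normalized counts of the 8 TRiC subunit genes in each library, iAs on the left and untreated on the right of each panel; points are libraries, and the bar is the mean with its SD (n = 5 and 4). Cct2, Cct5, Cct6a and Cct8 do not overlap between groups, and untreated 2 is the lowest point in all 8 panels.

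A further 11 genes of disaggregation and general folding were tested, and 4 were called (36.4%, beside 30.0% of all genes). Fkbp3, a nuclear prolyl isomerase, was higher with each library left out in turn (log2 difference 0.33, adjusted p = 0.0117 by limma), and Ppia, cyclophilin A, was higher by 0.26, a call kept only without iAs 1, untreated 1, untreated 3 or untreated 4. Vcp, the segregase that pulls ubiquitinated proteins apart, and its adaptor gene Nploc4 were each lower by a log2 difference of -0.20, and both calls were lost without untreated 1 and without untreated 3. Over the 10 lists of related genes together, 19 of 122 tested genes were higher and 18 were lower, which is 30.3% called beside 30.0% of all genes.

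Ratios of 6 pairs of related genes were formed within each library, which makes them independent of library scaling, and were compared by a two-sided exact permutation test over the 126 ways to divide 9 libraries (smallest possible p 0.0159, adjusted over the 6 pairs). The log2 ratio of Fkbp4 to Fkbp5 was 1.57, 1.58, 1.62, 1.63 and 1.65 in iAs libraries, against 1.06, 1.21, 1.07 and 1.15 in untreated ones. Every iAs value lay above every untreated one, and the difference was 0.49 (exact p = 0.0159, adjusted 0.0476). The log2 ratio of Hsph1 to Hspa8 was -3.03, -3.05, -3.10, -3.26 and -3.15 in iAs libraries, against -2.85, -2.69, -2.79 and -2.77 in untreated ones. Here every iAs value lay below every untreated one, and the difference was -0.34 (exact p = 0.0159, adjusted 0.0476). Both adjusted values pass only because 2 pairs sit at the smallest possible p, and 1 such pair among the 6 could not pass. Fkbp4 and Hsph1 were already called and Fkbp5 and Hspa8 were not, so these ratios are no separate support for the calls. The other 4 ratios overlapped and did not pass the exact test. The ratio of Hspa4l to Hspa4 differed by -0.08 (adjusted exact p = 0.2857), Dnajb1 to Dnaja1 by 0.01 (0.7937), Hspd1 to Hspe1 by -0.06 (0.4762) and Hsp90aa1 to Hsp90ab1 by 0.96 (0.4762). The last was 0.17 without untreated 4. With 1 library fewer the smallest possible p is larger, and the adjusted p of the first 2 pairs was then 0.0857 or 0.1071.

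**Figure D4:**
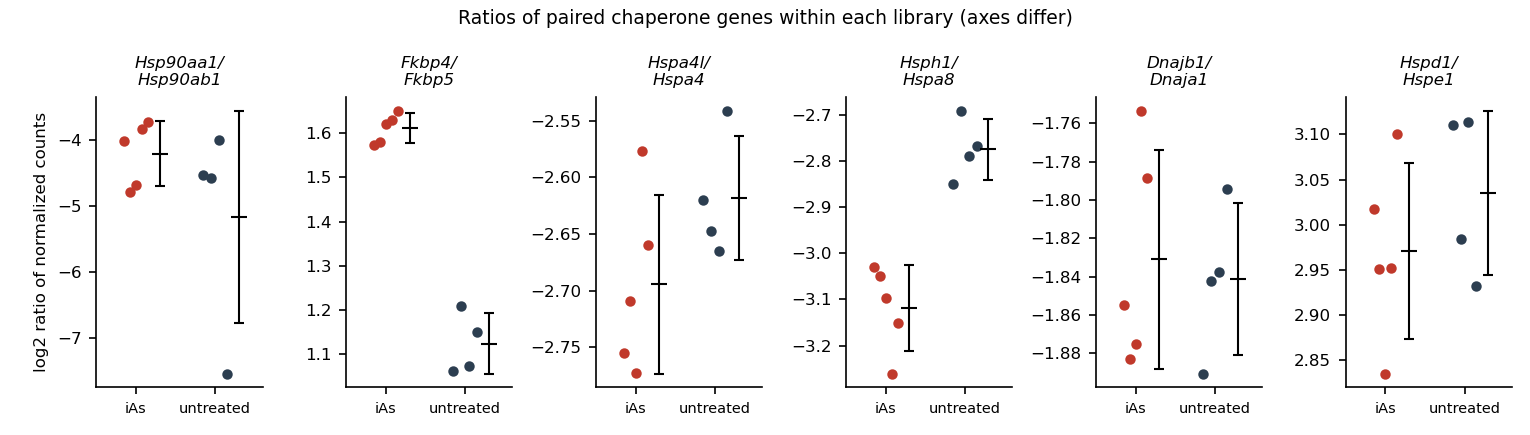
Log2 ratio of the normalized counts of 6 gene pairs in each library, iAs on the left and untreated on the right; points are libraries, the bar is the mean with its SD (n = 5 and 4), and each panel has its own axis. Only Fkbp4 to Fkbp5 (difference 0.49) and Hsph1 to Hspa8 (difference -0.34) separate the groups.

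The library codes in the sample descriptions have 3 endings, whose meaning the labels do not give. The commonest ending holds iAs 1, 4 and 5 and untreated 1 and 3, another holds iAs 3 and untreated 2, and the last holds iAs 2 and untreated 4. Within these 3 sets, 19 of the 37 chaperone genes (51.4%) were higher in iAs libraries each time, beside 30.4% of all genes, and 3 (Hsph1, Stub1 and Hspbp1) were lower each time (8.11%, beside 30.1%). All 9 genes called higher were among the 19, and all 8 TRiC subunits were too. The sets divide the same libraries that gave the calls, so a gene whose groups do not overlap must keep its sign in each. This holds for 7 of the genes called higher and for the 2 called lower, so their agreement is no further support. For Fkbp4 the 3 log2 differences were 0.51, 0.54 and 0.45, in the order given above, and for Hsph1 -0.31, -0.23 and -0.31. For Stub1 they were -0.34, -0.16 and -0.37, for Cct7 0.11, 0.42 and 0.21, for Tcp1 0.07, 0.43 and 0.19, and for Hsp90aa1 0.60, 0.19 and 3.00. Of these 6 genes, Fkbp4 and Hsph1 differed least between the sets and Hsp90aa1 most. The sets share no library, and 2 of them hold a single library per group, so these values have no test. A fit with the ending as a block called 15 of the 37 genes higher and 2 lower, with 36.6% of all genes called. Its 6 added genes were Cct4, Tcp1, Hsp90aa1 (log2 difference 1.05, adjusted p = 0.0329 by limma), Hspa2, Hspe1 and Ptges3. In the libraries of the commonest ending alone Hsp90aa1 also passed the test (0.60, adjusted p = 0.041).

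**Figure D5:**
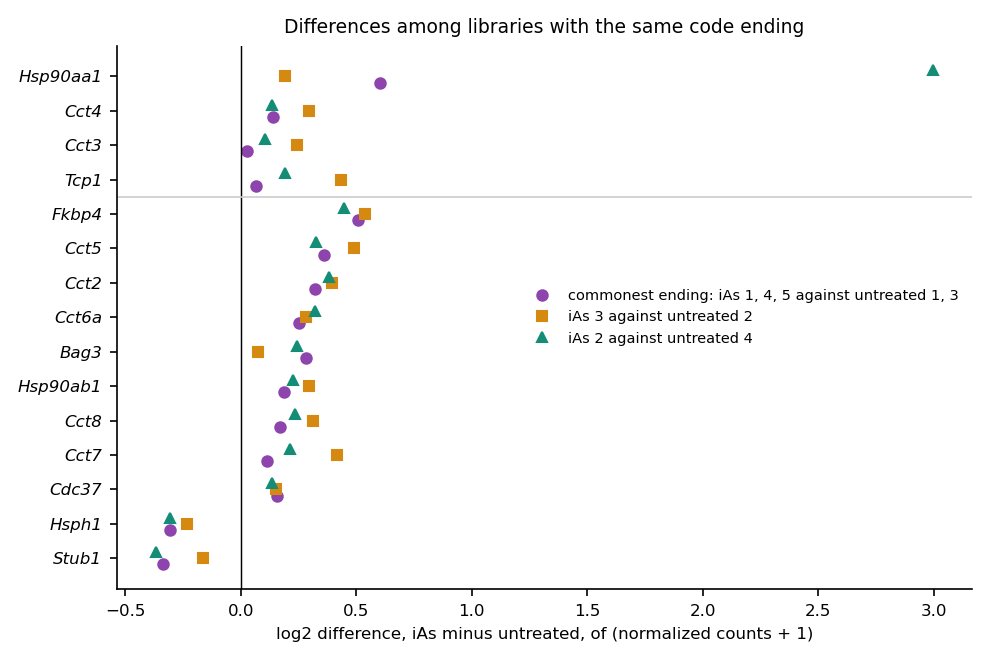
Log2 difference (iAs minus untreated) of the 11 called chaperone genes below the grey line and of Hsp90aa1, Cct4, Cct3 and Tcp1 above it, within each of 3 sets of libraries that share a code ending. All 11 called genes keep their sign in all 3 sets, as those without overlap between groups must. Hsp90aa1 is at 3.00 in the set with untreated 4.

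Of the 26 tested chaperone genes that were not called, 24 had log2 differences between -0.09 (Hspbp1) and 0.22 (Hspe1), with 95% confidence intervals that lay within -0.24 and 0.42. For these genes a change of 2-fold in either direction lies outside the interval. Hspa2 and Hsp90aa1 had intervals up to 1.07 and 2.43.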

How the data were processed

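The deposited mRNA values are a signal, the authors' DESeq2-normalized read counts for each gene, as the name of the table in the labels says. The submitters' processing notes name DESeq2, STAR, Salmon and the build rn6, without versions or roles. Kapa mRNA libraries were made from Norgen RNA, per the labels' protocols. Table columns were assigned by the code that each sample's description gives. In 4 libraries it differs from the code in the title, within the same group.

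Log2(value + 1) was fitted with limma 3.58.1 (trend, R 4.3.3) for the 14410 genes with a mean of at least 10, and p-values were adjusted by Benjamini-Hochberg over all of them with a threshold of 0.05. The pseudocount understates changes of low genes. The fit was tested on simulated data. Low values were whole multiples (within 0.05 step) of the commonest low value in 66.4% to 88.7% of cases, so whole reads were not recovered, read depth is unknown and no count model was run. Counts are not divided by gene length, so levels are not compared between genes. Exact permutation tests, promoter searches and figures used Python 3.11.15, scipy 1.17.1, pandas 2.3.3 and matplotlib 3.10.9. Promoter windows came from a RefSeq table (GRCr8).

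The members and lists were chosen with earlier results of these data known. Every member may be named. From each list of related genes at most 4 called genes with the smallest adjusted p were named, and Hspa1a and Hspa1b. A gene that this rule takes is not reported here. The beta cell, hepatocyte, fibroblast, immune, duct and islet markers and Hmox1 and Mt1 are context. Alternatives covered the pseudocount, the filter, the scaling, the variance model, blocks and leaving out each library.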

Additional observations from a re-analysis of the deposited data

Results flagged for a closer look

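Among the 74 group values looked at (37 genes in 2 groups), 7 held 1 library far from the others, judged by the gap to the nearest library as a share of the range. Chance gives about 1 in 20 for independent values. The genes here vary together between libraries, so the 7 are not separate and their number cannot be set against that share. In untreated 2 the low value of Cct7 stood apart by 0.912 of the range, that of Hsp90ab1 by 0.865 and that of Dnaja2 by 0.853. In untreated 4 the high value of Ptges3 stood apart by 0.836. In iAs 2 the high values of Hspa4 (0.832) and Cct6a (0.807) stood apart, and in iAs 1 the low value of Cct7 (0.723). The low Hsp90aa1 value of untreated 4 did not pass this criterion.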

How the results depend on the processing

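Across 21 alternatives no called difference changed direction: of 777 recomputed chaperone differences 726 stayed on their side of the threshold, 40 lost the call and 11 gained it, and 43 uncalled values in 12 genes, none above 0.06 as reported, changed sign. The count of chaperone genes called lower was 2 under every alternative. The count called higher was 9, with a range of 5 (without iAs 5 or untreated 3) to 10 when a library was left out, 15 with the code ending as a block and 7 under quantile normalization, without a filter or without a variance trend. TRiC subunits called higher numbered 5, with 4 to 6 when a library was left out and 3 in the commonest code ending alone. Scaling to equal totals moved the median of all genes to -0.03 and the share of higher calls to 41.4% (50.5% as reported). Then 8 chaperone genes and 5 TRiC subunits were higher. Calls over all genes numbered 3423 to 4068 with a library left out. The cause of these changes was not tested.

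Replicate numbers did not pair the libraries: deviations of same-numbered libraries correlated at 0.03, -0.04, 0.01 and -0.04. With the replicate block, to which iAs 5 has no partner, calls over all genes fell to 2761 (1351 higher, 1410 lower), chaperone genes called higher to 4 (Fkbp4, Cct2, Cct5 and Cct6a), TRiC subunits to 3 and genes of the related lists to 11 higher and 10 lower. With a library left out, the difference of the Fkbp4 to Fkbp5 ratio was 0.47 to 0.52 (0.4664 to 0.5150) and that of Hsph1 to Hspa8 -0.37 to -0.31 (-0.3693 to -0.3077), each with an adjusted exact p of 0.0857 or 0.1071. Ratios within code endings or with the replicate block were computed without a test, since these designs cannot reach the threshold. Tests of recovered reads with edgeR or DESeq2 were not run because whole reads were not recovered.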
